A study of Sus scrofa with 19 samples.

Results

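NFKBIA, PTX3, PTGS2, CH25H and CD83, 5 genes that NF-kB switches on, were followed in whole adrenal glands of 19 male pigs, 1 piglet from each sow. Each has 1 probe set of its own among the 13157 probe sets that carry a single gene symbol on the array, and 5 of 5 passed the filter on low signal. They were chosen by name from earlier results of these same arrays, in which CD83 and CH25H stood among genes with lower signal after maternal LPS and PTX3 among genes with lower signal on the fish oil diet. Their differences between diets and between maternal challenges are therefore given as a description, with the standard error (SE) of the model. Nothing is read from tests of these differences.

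The sows ate a fish oil, a microalgae or a control diet from gestation day 75, and on gestation day 112 they were given LPS or saline. LPS, lipopolysaccharide, is a component of the outer membrane of Gram-negative bacteria. The piglets were weaned at 21 days, received LPS themselves at 28 days and were killed 2 hours later. The groups hold 4 fish oil LPS piglets, 4 fish oil saline piglets, 2 microalgae LPS piglets, 3 microalgae saline piglets, 3 control LPS piglets and 3 control saline piglets, where LPS and saline name what the sow received. Every piglet was challenged, so no array shows these genes without a recent challenge.

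NF-kB is a family of transcription factors held inactive in the cytoplasm by inhibitor proteins of the IkB family. When LPS binds Toll-like receptor 4, a kinase complex marks the inhibitor for destruction, NF-kB enters the nucleus, and early response genes are transcribed within hours. One of those genes encodes the inhibitor itself, which closes a negative feedback loop. In the adrenal gland, cytokines and prostaglandins made during such a response are known to act on steroid-producing cells.

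All values are log2 signals as deposited, so 1 unit is a doubling of signal. Array medians lay between 4.38 and 4.52. The spread of an array, the SD over its probe sets, had a median of 1.92 over all 19 arrays. It was 1.76 on the array of piglet 24 (fish oil LPS) and 1.81 on that of piglet 6 (control LPS). Several differences and correlations are therefore also given without piglets 6 and 24. Cortex markers, among them steroidogenic enzymes, averaged 11.02 to 11.7 per piglet (4 of 8 markers tested) and medulla markers 6.34 to 8.44 (4 of 7 tested), so each gland held signal of both. Levels of different genes come from different probe sets and are not set against each other.

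NFKBIA encodes IkB-alpha, the inhibitor that NF-kB induces against itself. Its signal was 9.03, 9.59, 9.66 and 9.04 in fish oil LPS piglets 10, 19, 20 and 24, and 9.12, 9.23, 9.46 and 9.80 in fish oil saline piglets 9, 11, 13 and 18. It was 9.24 and 9.43 in microalgae LPS piglets 7 and 23, and 9.58, 9.61 and 9.56 in microalgae saline piglets 12, 15 and 22. In control LPS piglets 6, 16 and 17 it was 8.95, 9.73 and 9.71, and in control saline piglets 8, 14 and 21 it was 9.12, 9.39 and 9.66. The 3 microalgae saline piglets were close together, with an SD of 0.026, while control LPS held both the lowest piglet of all, piglet 6, and one of the highest.

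NFKBIA therefore varied little between groups and more within them. The whole range over 19 piglets was 0.85 log2, a 1.80-fold span. The difference after maternal LPS, taken as LPS minus saline averaged over 3 diets, was -0.08 ± 0.137 (SE), with a 95% interval of -0.37 to 0.21, and it was 0.04 without piglets 6 and 24. For fish oil minus control it was -0.06 ± 0.157, with an interval of -0.39 to 0.27, and for microalgae minus control 0.04 ± 0.178. Both diet comparisons share the 6 control piglets, here and for the other genes. Without control LPS piglet 6 the microalgae difference was -0.09. Group means ran between 9.33 and 9.59, and no neighbours in that order were further apart than the within-group SD of 0.302.

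**Figure D1:**
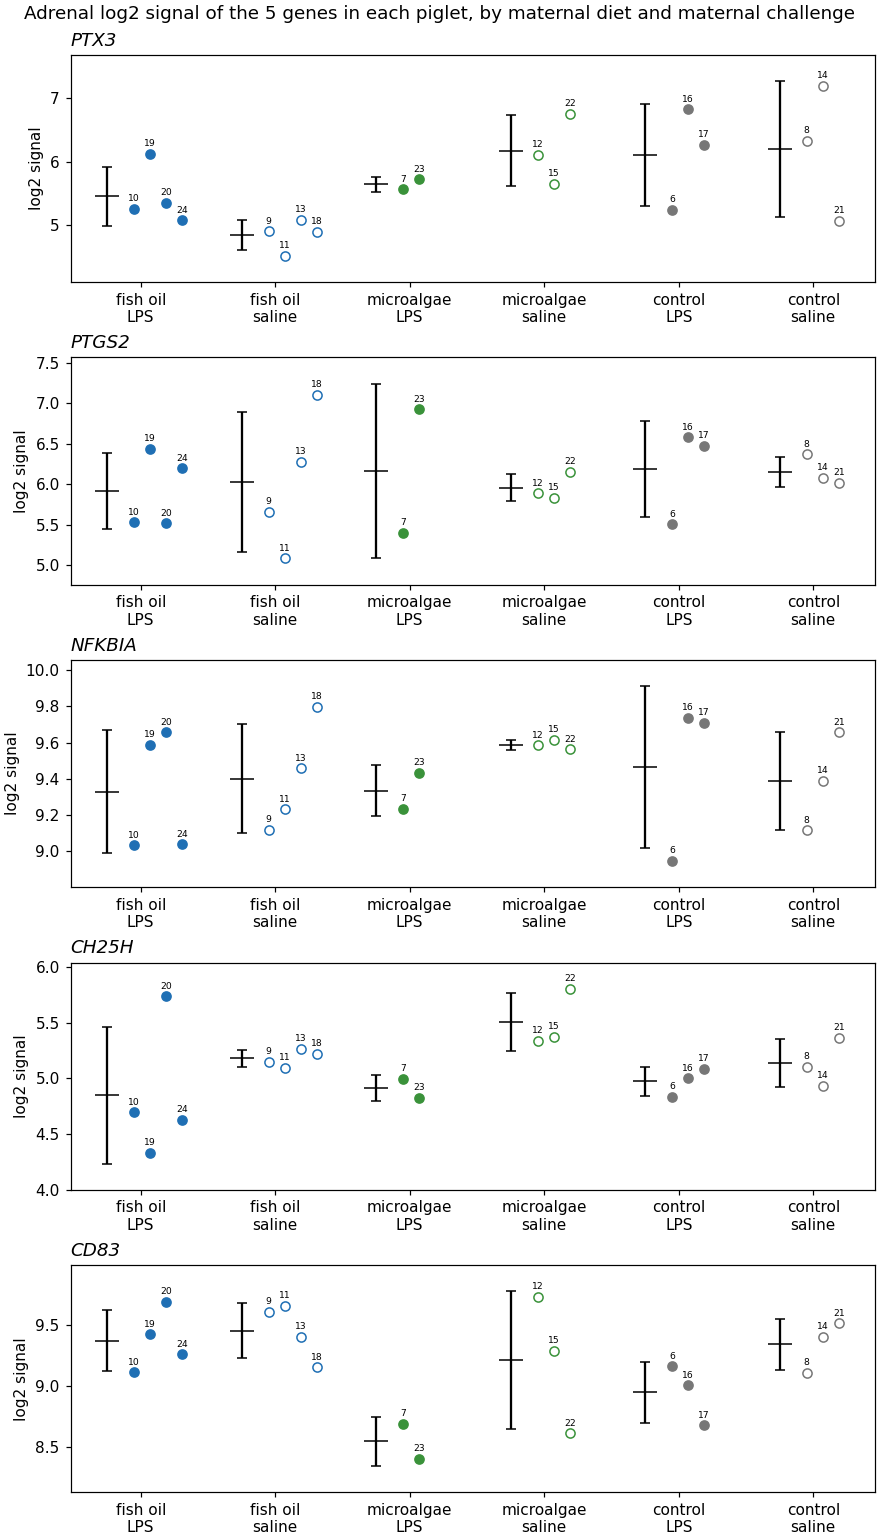
Log2 signal (vertical axis) of the 5 genes in each of the 19 piglets, by group (horizontal axis). Filled points are piglets of LPS sows and open points are piglets of saline sows. Bars are group means and their whiskers are the SD of the group. PTX3 and PTGS2 spread over more than 2 log2 units, from 4.51 to 7.20 and from 5.09 to 7.11, and NFKBIA lies between 8.95 and 9.80.

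PTX3 encodes pentraxin 3, a soluble protein released into the tissue that binds microbes and complement component C1q. Its signal was 5.25, 6.12, 5.35 and 5.07 in fish oil LPS piglets 10, 19, 20 and 24, and 4.90, 4.51, 5.08 and 4.89 in fish oil saline piglets 9, 11, 13 and 18. It was 5.56 and 5.72 in microalgae LPS piglets 7 and 23, and 6.11, 5.65 and 6.76 in microalgae saline piglets 12, 15 and 22. Control LPS piglets 6, 16 and 17 had 5.24, 6.82 and 6.27, and control saline piglets 8, 14 and 21 had 6.33, 7.20 and 5.07. All 8 fish oil piglets lay below the control median of 6.30, and 3 of 8 lay below every control piglet. In addition, 7 of 8 fish oil piglets, all but piglet 19, lay below every microalgae piglet.

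The PTX3 difference for fish oil minus control was -1.004 ± 0.297 (SE), a signal ratio of 0.498, as the mean over both maternal challenges. It was -1.35 ± 0.419 among piglets of saline sows and -0.66 ± 0.419 among piglets of LPS sows. Fish oil minus microalgae was -0.76 ± 0.317, and microalgae minus control was -0.25 ± 0.336. The fish oil difference was -0.76 without piglet 14, the highest control piglet, -1.29 without piglet 21, the lowest, and -1.16 without piglets 6 and 24. The microalgae difference was 0.00 without piglet 14.

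PTX3 showed no single direction after maternal LPS. The difference was 0.60 ± 0.388 on fish oil, -0.53 ± 0.501 on microalgae and -0.09 ± 0.448 on the control diet. The mean over diets was -0.01 ± 0.259, and it was 0.18 without piglets 6 and 24. From low to high the group means were 4.85 ± 0.24 in fish oil saline, 5.45 ± 0.46 in fish oil LPS, 5.64 ± 0.11 in microalgae LPS, 6.11 ± 0.80 in control LPS, 6.17 ± 0.56 in microalgae saline and 6.20 ± 1.07 in control saline piglets (SD, n = 4, 4, 2, 3, 3 and 3). No neighbours in this order differed by more than the within-group SD of 0.622. That SD exceeded the SD of 95.5% of all probe sets tested, whose median was 0.263.

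Pentraxin 3 is also made by fibroblasts, and levels of connective tissue markers are given beside it. Of 10 fibroblast and capsule markers 9 were tested, and 8 were lower and 1 higher in fish oil than in control piglets, with a median difference of -0.70, against a median of 0.00 over all probe sets. None of the 9 passed the adjusted threshold. Collagen genes COL1A1, COL1A2 and COL3A1 had differences of -1.06 ± 0.466, -0.93 ± 0.351 and -0.84 ± 0.290, while POSTN, a matrix protein, had 0.52 ± 0.521. The mean level of the 9 markers was 5.14 to 6.78 per piglet on fish oil, 5.96 to 7.25 on microalgae and 5.20 to 7.45 on the control diet. In a whole gland, fewer cells of a type and less RNA per cell cannot be told apart.

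Within groups, after each group's mean was taken off, PTX3 and this marker mean had a Pearson r of 0.58 over 19 piglets (permutation p 0.0684, adjusted over 55 relations 0.358; Spearman rho 0.48, adjusted p 0.430). Without piglets 6 and 24, the 2 farthest from the median of the marker mean, r was 0.37. Connective tissue was not alone in this. With the mean of the lymphocyte markers PTX3 had r = -0.45 (permutation p 0.0330, adjusted over 55 relations 0.286), and -0.48 without piglets 10 and 18. With the medulla markers r was -0.37 (adjusted permutation p 0.494). No relation of PTX3 with a cell type mean passed after adjustment. The part of the connective tissue markers in the PTX3 difference was not tested.

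**Figure D2:**
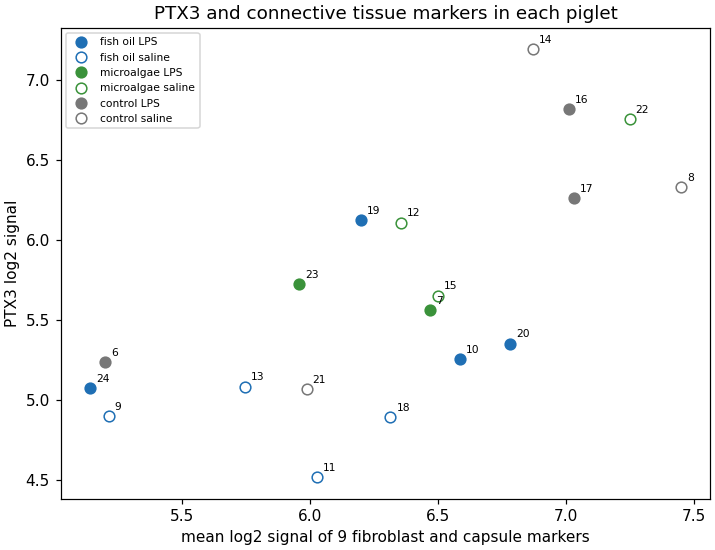
PTX3 log2 signal (vertical axis) against the mean log2 signal of 9 fibroblast and capsule markers (horizontal axis), 1 point per piglet, labelled with its number and coloured by group. Piglets 24, 9 and 6 are low on both axes, and fish oil piglet 11 has the lowest PTX3, 4.51.

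PTGS2 encodes cyclooxygenase 2, the inducible enzyme that starts prostaglandin synthesis from arachidonic acid and an enzyme for which omega-3 fatty acids are known to compete with it. Its signal was 5.53, 6.44, 5.52 and 6.20 in fish oil LPS piglets 10, 19, 20 and 24, and 5.66, 5.09, 6.27 and 7.11 in fish oil saline piglets 9, 11, 13 and 18. Microalgae LPS piglets 7 and 23 had 5.40 and 6.93, and microalgae saline piglets 12, 15 and 22 had 5.89, 5.84 and 6.16. Control LPS piglets 6, 16 and 17 had 5.51, 6.58 and 6.47, and control saline piglets 8, 14 and 21 had 6.37, 6.08 and 6.02. The lowest and the highest piglet of the study, piglets 11 and 18, belonged to the same group, fish oil saline, and every group overlapped every other.

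PTGS2 group means stayed between 5.92 and 6.19, while single piglets spanned 2.02 log2, or 4.06-fold. The differences were 0.04 ± 0.256 after maternal LPS, with a 95% interval of -0.50 to 0.58, and -0.19 ± 0.293 for fish oil minus control, with an interval of -0.81 to 0.42. For microalgae minus control it was -0.11 ± 0.332, and for fish oil minus microalgae -0.09 ± 0.313. With each piglet left out in turn, fish oil minus control stayed negative, from -0.37 to -0.04. Single piglets turned the signs of the other differences. Without microalgae LPS piglet 7, microalgae minus control was 0.27 and fish oil minus microalgae -0.47. Without microalgae LPS piglet 23 they were -0.49 and 0.29. The difference after maternal LPS was 0.30 without piglet 7 and -0.21 without piglet 23. Without piglets 6 and 24 it was 0.12. Without them, fish oil minus control was -0.41, microalgae minus control -0.28 and fish oil minus microalgae -0.13. The within-group SD of 0.613 was larger than that of 95.4% of probe sets tested.

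CH25H encodes cholesterol 25-hydroxylase, the enzyme that makes 25-hydroxycholesterol, an oxysterol that restrains cholesterol synthesis and acts in antiviral defence. Its signal was 4.70, 4.33, 5.74 and 4.63 in fish oil LPS piglets 10, 19, 20 and 24, and 5.15, 5.09, 5.27 and 5.22 in fish oil saline piglets 9, 11, 13 and 18. It was 4.99 and 4.83 in microalgae LPS piglets 7 and 23, and 5.34, 5.37 and 5.80 in microalgae saline piglets 12, 15 and 22. Control LPS piglets 6, 16 and 17 had 4.83, 5.001 and 5.08, and control saline piglets 8, 14 and 21 had 5.10, 4.94 and 5.37. Of the 9 piglets of LPS sows, 8 lay below the median of piglets of saline sows, 5.24, and 5 of 9 lay below all 10 of them. The exception was fish oil piglet 20, the second highest of the 19.

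After maternal LPS the CH25H difference was -0.36 ± 0.146 (SE), a signal ratio of 0.777. By diet it was -0.33 ± 0.220 on fish oil, -0.60 ± 0.284 on microalgae and -0.16 ± 0.254 on the control diet. It was -0.46 without piglet 20, -0.31 without piglet 19 and -0.32 without piglets 6 and 24. Diet differences were smaller, at -0.04 ± 0.168 for fish oil and 0.15 ± 0.190 for microalgae, each minus control. The fish oil difference was 0.05 without piglet 19 and -0.19 without piglet 20. The 4 fish oil saline piglets were close together, with an SD of 0.076, whereas the 4 fish oil LPS piglets had an SD of 0.61.

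CD83 encodes a surface glycoprotein of activated dendritic cells and lymphocytes, used as a maturation marker. Its signal was 9.11, 9.42, 9.69 and 9.26 in fish oil LPS piglets 10, 19, 20 and 24, and 9.61, 9.66, 9.40 and 9.15 in fish oil saline piglets 9, 11, 13 and 18. It was 8.69 and 8.40 in microalgae LPS piglets 7 and 23, and 9.73, 9.29 and 8.61 in microalgae saline piglets 12, 15 and 22. Control LPS piglets 6, 16 and 17 had 9.16, 9.005 and 8.68, and control saline piglets 8, 14 and 21 had 9.11, 9.40 and 9.51. The fish oil piglets kept to a narrow band, 9.11 to 9.69, while the microalgae piglets held both the highest and the lowest value of the study. Among the 5 microalgae piglets, 3 lay below every fish oil piglet, and so did 3 of the 6 control piglets. Of these, control piglet 8, at 9.106, was only just under fish oil piglet 10, at 9.110.

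The CD83 difference after maternal LPS was -0.38 ± 0.139 (SE), a ratio of 0.768, and 7 of 9 piglets of LPS sows lay below the median of piglets of saline sows, 9.40. Without piglets 6 and 24 it was -0.40. By diet it was -0.08 ± 0.209 on fish oil, -0.67 ± 0.270 on microalgae and -0.39 ± 0.241 on the control diet. Fish oil minus microalgae was 0.53 ± 0.171, a ratio of 1.45, made up of 0.27 ± 0.160 for fish oil minus control and -0.27 ± 0.181 for microalgae minus control. Without microalgae saline piglet 22 the microalgae difference was -0.12 and the fish oil minus microalgae difference 0.38. The lowest group mean, 8.54 ± 0.20 in microalgae LPS piglets (SD, n = 2), was 0.40 under the next, control LPS, which is more than the within-group SD of 0.308. The other neighbours differed by less than that SD.

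CD83 can come from lymphocytes and from cells of the macrophage and dendritic lineages. After maternal LPS, lymphocyte markers were higher in 6 of 8 tested and lower in 2, with a median difference of 0.08, and macrophage markers were higher in 5 of 6. The mean macrophage level was 4.70 to 5.24 per piglet on fish oil, 4.47 to 4.97 on microalgae and 4.40 to 4.93 on the control diet. Set against control, 6 of 6 macrophage markers were higher on fish oil, and 2 were higher and 4 lower on microalgae. Lymphocyte markers were higher than on control in 6 of 8 on fish oil and in 8 of 8 on microalgae. None of these markers passed the adjusted threshold. Within groups, CD83 had an r of 0.10 with the macrophage mean and 0.07 with the lymphocyte mean (n = 19, permutation p adjusted over 55 relations 0.928 for each). By rank over the 19 piglets, Spearman rho was -0.21 and -0.04 (adjusted permutation p 0.744 and 0.993). Without the 2 piglets farthest from the median of the marker mean, r was 0.42 with the macrophage mean (without piglets 18 and 14). With the lymphocyte mean it was 0.35 (without piglets 10 and 18). The size of r thus depended on single piglets, and no relation is read from it. The part of these cells in the CD83 differences was not tested.

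**Figure D3:**
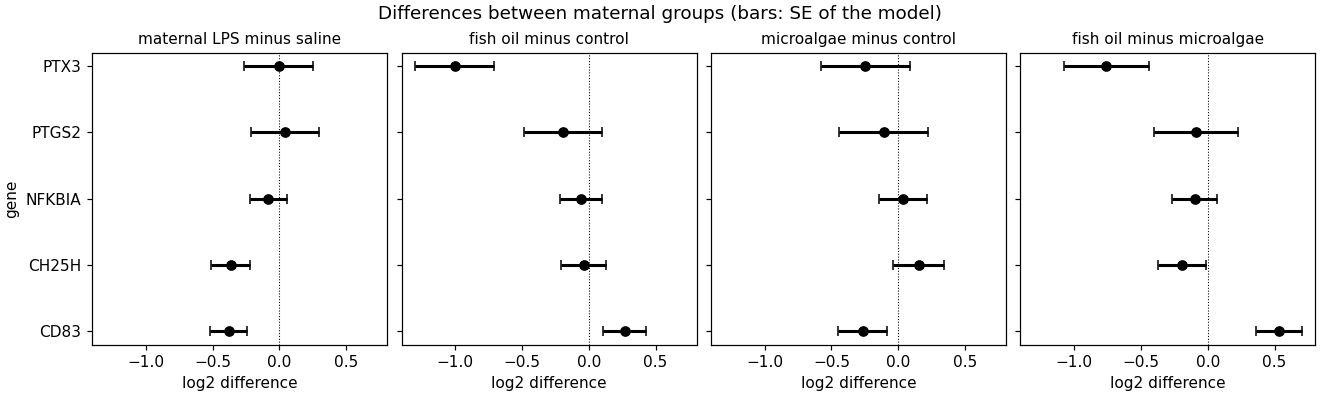
Differences in log2 signal (horizontal axis, bars are SE) of the 5 genes (vertical axis) for maternal LPS minus saline, fish oil minus control, microalgae minus control and fish oil minus microalgae. CD83 and CH25H lie at -0.38 and -0.36 after maternal LPS, PTX3 at -1.004 for fish oil minus control, and NFKBIA within 0.10 of 0 in each comparison.

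Over the whole array, few probe sets passed the limma test after Benjamini-Hochberg adjustment at 0.05. For maternal LPS 2 of 20668 did, or 0.00968%, and for fish oil, microalgae, fish oil minus microalgae and the interaction 0 did, or 0%. With each piglet left out in turn, the count for maternal LPS was 0 in 13 cases, 1 in 4 cases, 2 in 1 case and 12 without microalgae LPS piglet 7. None of the 5 genes was among them in any comparison. At an unadjusted p under 0.05, 6.97% of probe sets passed for maternal LPS (1440), with 2 of the 5 genes, CH25H and CD83. For fish oil 2.69% passed (555), with 1 of 5, PTX3. For microalgae 1.65% passed (340), with 0 of 5. For fish oil minus microalgae 2.85% passed (590), with 2 of 5, PTX3 and CD83. Since these comparisons chose the genes, nothing is read from the counts.

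Whether maternal LPS acted differently by diet was asked with an interaction test on both diets together. None of the 5 genes passed, with adjusted p-values of 0.977 to 0.998. Of all probe sets 4.75% (982) passed at an unadjusted p under 0.05, with 0 of the 5 genes among them. The genes were chosen from results of these same group means, so nothing about them is read from this test. On microalgae, NFKBIA and CH25H were lower in both LPS piglets than in every saline piglet. Among all probe sets 14.7% showed this non-overlap in the same direction, so nothing is read from it.

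Lists of known genes of the pathway were read with the 5 genes themselves taken out of them. Of 10 NF-kB subunits and kinases tested (of 11 listed), 4 were higher and 6 lower after maternal LPS, and 2 higher and 8 lower on fish oil, with medians of -0.02 and -0.06. NFKB1, which encodes the p50 subunit, differed by -0.15 ± 0.137 after maternal LPS and RELA, the p65 subunit, by -0.03. Of 7 other feedback inhibitors tested (of 11), 2 were higher and 5 lower after maternal LPS, with a median of -0.05. TNFAIP3, which encodes the ubiquitin-editing inhibitor A20, differed by -0.13 ± 0.129, and NFKBIZ, an inducible nuclear IkB, by -0.08 ± 0.172. On fish oil NFKBIZ differed by -0.35 ± 0.197. None of these genes passed the adjusted threshold in any comparison.

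Of 19 other inducible targets tested (of 29), 4 were higher and 15 lower after maternal LPS, with a median of -0.10, against 0.01 over all probe sets. IL6, the cytokine that drives the acute phase response, differed by -0.66 ± 0.352, CXCL8, a neutrophil chemoattractant, by -0.23 ± 0.224 and TNF by -0.01 ± 0.170. ICAM1, an adhesion molecule, and SOD2, a mitochondrial antioxidant enzyme, differed by 0.01 and 0.07. On fish oil 11 were higher and 8 lower, with a median of 0.01, and TNF differed by 0.31 ± 0.195. Of 7 immediate early genes, 0 were higher and 7 lower after maternal LPS, with a median of -0.11. Genes of a list come from the same piglets and can move together. Within groups, IL6 and CCL2 both followed NFKBIA (r = 0.92 and 0.91). Counts of direction on the pathway lists are therefore not independent, and nothing is read from them. None of the genes on these lists passed the adjusted threshold in any of the 3 comparisons.

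Of 12 other prostaglandin genes tested (of 17), 4 were higher and 8 lower after maternal LPS. PTGES, the synthase that makes prostaglandin E2 downstream of PTGS2, differed by 0.26 ± 0.233 after maternal LPS and by -0.25 ± 0.267 on fish oil. Of 5 other oxysterol genes tested (of 11), 1 was higher and 4 lower after maternal LPS, and INSIG1, which retains the sterol sensor SCAP in the endoplasmic reticulum, differed by -0.17 ± 0.209. Of 4 other pentraxin and complement genes tested (of 8), 1 was higher and 3 lower after maternal LPS, 3 were higher and 1 lower on fish oil, and 0 were higher and 4 lower on microalgae. Of 5 other dendritic cell activation genes tested (of 8), 1 was higher and 4 lower after maternal LPS, and 1 was higher and 4 lower on microalgae. Costimulatory molecules CD86 and CD40 differed by -0.14 ± 0.132 and -0.08. None of these genes passed the adjusted threshold either.

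How the 5 genes vary between piglets of the same group was not used to choose them, so it was tested. Each group's mean was taken off, and 10 pairs were correlated over 19 piglets with 100000 permutations within groups. By Pearson's r, 0 of 10 pairs passed after adjustment over the pairs, with 3 of 10 under an unadjusted 0.05. By Spearman's rho, 2 of 10 passed. PTX3 and PTGS2 tended to be high in the same piglets, with r = 0.42 (adjusted permutation p 0.0554) and rho = 0.56 (adjusted 0.0358), and r was 0.50 without piglets 14 and 16. PTGS2 and CD83 ran opposite, with r = -0.52 (adjusted 0.0554) and rho = -0.64 (adjusted 0.0358), and r was -0.43 without piglets 18 and 11. Without piglets 6 and 24 these r were 0.35 and -0.47. Of all probe sets tested, 7.14% had an r with PTX3 at least as high as that of PTGS2. With PTGS2, 97.1% had an r at least as high as that of CD83. No link particular to these genes is therefore read from the pairs.

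PTGS2 and NFKBIA had r = 0.55 (adjusted permutation p 0.138; rho 0.50, adjusted 0.218). The other 7 pairs had r between -0.32 and 0.36, with adjusted permutation p-values for r of 0.489 or more. Their rho lay between -0.44 and 0.43, with adjusted permutation p-values for rho of 0.218 or more. Some of these rest on single piglets. PTX3 and NFKBIA had r = 0.29, which was 0.02 without piglet 6 and 0.64 without piglet 21. CH25H and CD83 had r = 0.00, which was -0.59 without piglet 20 and 0.39 without piglets 19 and 22.

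NFKBIA followed the cytokine genes closely. With IL6, r was 0.92 over 19 piglets (permutation p 0.00025, adjusted over 55 relations 0.00687; rho 0.91, adjusted 0.0110), and it was 0.91 without piglets 10 and 7. IL6 signal was lowest in piglets 10, 7 and 6, at 8.83, 8.86 and 8.98, and highest in piglet 18, at 11.4, which also had the highest NFKBIA. With CXCL8, r was 0.87 (adjusted 0.00687; rho 0.82, adjusted 0.0294), and 0.89 without piglets 10 and 7. With TNF, r was -0.50 (adjusted 0.326), which did not pass.

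Array spread moved with NFKBIA too, r = 0.74 (adjusted permutation p 0.0176; rho 0.74, adjusted 0.0614), and 0.67 without piglets 24 and 6. With array spread taken out of both genes, NFKBIA and IL6 had r = 0.92, and without piglets 6 and 24 r was 0.91. Many probe sets followed NFKBIA: 18.1% of all tested had r over 0.5 with it and 15.4% had r under -0.5. The same shares for r over 0.5 were 3.26% for PTX3, 3.39% for PTGS2, 8.35% for CH25H and 2.68% for CD83.

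PTGS2 and IL6 had r = 0.75 (permutation p 0.00710, adjusted over 55 relations 0.0976; rho 0.76, adjusted 0.106), and 0.74 without piglets 10 and 7. With the mean of the medulla markers PTGS2 had r = -0.61 and CD83 r = 0.48 (adjusted 0.329 and 0.358), so neither passed. Without piglets 16 and 20 these were -0.70 and 0.78.

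**Figure D4:**
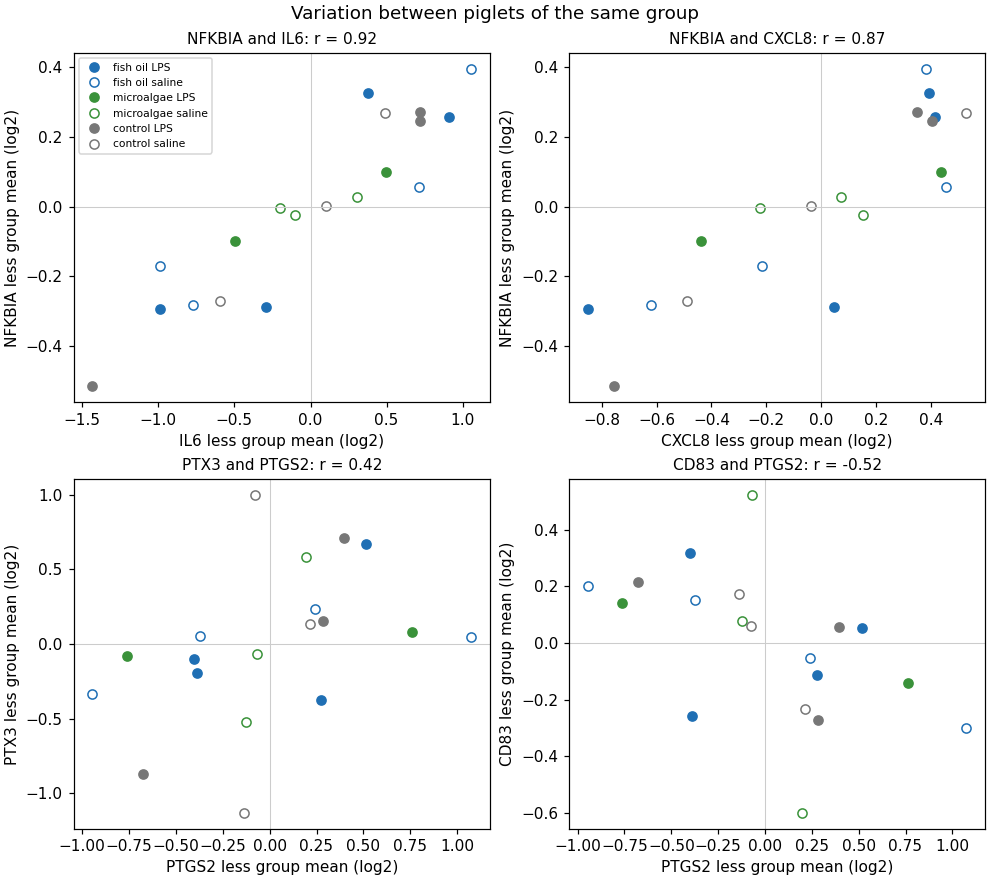
Log2 signal less the mean of the piglet's group, 1 point per piglet, for NFKBIA against IL6, NFKBIA against CXCL8, PTX3 against PTGS2 and CD83 against PTGS2 (first gene on the vertical axis). The upper panels lie along a line (r = 0.92 and 0.87), and the lower panels scatter more (r = 0.42 and -0.52).

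The genes most like each of the 5 within groups were taken as the 3 single-symbol probe sets with the highest Pearson r over 19 piglets. For NFKBIA they were TCEAL8 (0.92), IL6 (0.92) and CCL2 (0.91), the last a monocyte chemoattractant. With array spread taken out, these r were 0.83, 0.92 and 0.87. For PTX3 they were PI15 (0.86), ARHGEF10L (0.83) and KIF15 (0.81), and KIF15 averaged 3.27, close to the filter at 3.23. For PTGS2 they were LOC100153661 (0.87), TFPI2 (0.85), which encodes a serine protease inhibitor, and GJA1 (0.81), which encodes a connexin of gap junctions. For CH25H they were JMY (0.92), PABPC4L (0.87) and RETREG1 (0.87). For CD83 they were NDUFA4L2 (0.82), MAB21L1 (0.78) and SLC22A23 (0.77, with a lower rho of 0.56). These were picked as the highest of 10699 probe sets, so the values are a description. None of the 5 genes appears among the 3 nearest of another.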

How the data were processed

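Adrenal RNA of 19 piglets was measured on 1-colour Affymetrix arrays, labelled with the WT PLUS kit per the labels' protocols. Each piglet has 1 column of deposited log2 values, from 0.263 to 13.5 (base 2 was inferred from this range), used without further scaling. Transcriptome Analysis Console 4.0 is listed in the submitters' processing notes, but steps of summarization and normalization were not given in the sources used here.

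Genes were named from the array annotation (27558 probe sets, 13157 with 1 symbol, 523 with several, 13878 with none, 7 symbols updated). Probe sets in the lowest 25% by mean (under 3.23) were dropped, and 20668 were tested. The 6 group means were fitted by R 4.3.3 and limma 3.58.1, with a trended variance prior and 13 residual and 4.62 prior degrees of freedom. Tests were two-sided, and p-values were adjusted by Benjamini-Hochberg over these 20668. Maternal LPS effects are means over diets, and diet effects are means over both maternal challenges. The number of arrays limits the precision. Correlations used log2 values less the group mean, with two-sided permutation tests within groups in Python 3.11.15 with NumPy 2.4.6 and SciPy 1.17.1. The fit was also run on simulated data of this design.

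The members and lists were chosen with earlier results of these data known. Named genes are the 5 members, the 3 probe sets most like each, fixed genes of the pathway lists, and markers of cell types. Alternatives were no filter, a filter of 50%, median centring, quantile normalization, array weights, array spread as a covariate, no variance trend, and leaving out piglets. The alternatives for IL6, CXCL8 and the connective tissue markers were added after seeing the data. Of the fixed genes, PTGER4, PLA2G4A, CYP7B1, TNFAIP6, HPGD and GPR183 had no probe set of their own among those tested.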

Additional observations from a re-analysis of the deposited data

How the results depend on the processing

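The count of probe sets past the adjusted threshold for maternal LPS, 2, was 0 with no filter, with quantile normalization and without both piglets 6 and 24, 9 with array weights, and 4 with array spread as a covariate. With each piglet left out in turn it was 0 to 12, the 12 without microalgae LPS piglet 7. The counts for fish oil, microalgae, fish oil minus microalgae and the interaction stayed at 0 in 27 of 27 alternatives. Changing the filter or leaving out the variance trend cannot move a difference. Neither can leaving out a piglet of a group outside that comparison. Earlier results of the same arrays chose the genes, so kept signs are not read as support. With these limits, 11 of 20 differences of the 5 genes kept their sign in 27 of 27 alternatives. Among them were PTX3 for fish oil (-1.29 to -0.76 with each piglet left out in turn), CH25H after maternal LPS (-0.46 to -0.31), CD83 after maternal LPS (-0.48 to -0.29) and CD83 for fish oil minus microalgae (0.38 to 0.67). The other 9 took either sign in at least 1 alternative, among them PTX3 after maternal LPS (-0.19 to 0.16), PTGS2 after maternal LPS (-0.21 without piglet 23, 0.30 without piglet 7) and NFKBIA after maternal LPS (-0.13 to 0.00, and 0.05 with array spread as a covariate). The correlation of NFKBIA with IL6 was 0.88 to 0.94 with each piglet left out in turn, and that of PTX3 with the connective tissue markers was 0.42 to 0.66. The cause of these changes was not tested. No paired analysis was run. Each piglet belongs to 1 group, and no pairing of piglets across groups was used here. Groups of 2 to 4 piglets limit what can be seen, and the median SE over all probe sets was 0.123 for maternal LPS, 0.141 for fish oil and 0.160 for microalgae.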
